A study of Rattus norvegicus with 12 samples.

Results

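The rat miRNAs rno-miR-199a-5p, rno-miR-199a-3p and rno-miR-214, here miR-199a-5p, miR-199a-3p and miR-214, are 3 of 30 in a deposited table. Its rows had been chosen for a level at least 2-fold lower in Kupffer cells from ethanol-fed than from pair-fed rats. They were picked from that table by name, as the products of 2 hairpins that lie close together on the strand opposite to Dnm3. Every row of the table had been selected on the contrast of ethanol-fed with pair-fed rats, so levels by diet are given here as a description, with no test. Kupffer cells, which are the macrophages resident in liver sinusoids, were isolated from adult male Wistar rats and kept in primary culture, and their small RNA was sequenced in 12 libraries, 3 in each of 4 groups. The values of miR-199a and miR-214 come from the 6 basal libraries, which had no HA35, a hyaluronic acid fragment given to the other 6. In 3 of the basal libraries the rats had fed on a Lieber-DeCarli liquid diet with ethanol, and in the other 3 they were pair-fed the same diet with maltose dextrin in its place. Within a group the labels give days 1 to 3, here called replicates, without saying whether a library came from 1 rat or from pooled rats. None of the 3 miRNAs is among the 3 miRNAs of the deposited list for HA35, and their response to HA35 was not analysed here.

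A hairpin of miR-199a and that of miR-214 are cut from the long non-coding RNA Dnm3os. It is transcribed against Dnm3, the gene of the vesicle-scission protein dynamin 3. In mouse, this transcript is known from mesenchymal tissue and is driven by the transcription factor Twist1. In the liver, both miRNAs are known from hepatic stellate cells, among other settings. These cells are the pericytes of the sinusoid, which turn into collagen-producing myofibroblasts in fibrosis. In mouse stellate cells miR-214 is known to bind the transcript of connective tissue growth factor. In human cells miR-199a-5p is known to bind that of caveolin-1, and miR-199a-3p those of mTOR and the receptor MET. A precursor hairpin yields a product from each arm, named 5p and 3p, and each product finds its targets mainly through its seed, bases 2 to 8.

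The mature sequences are shown because the 3 miRNAs share a transcript but not a seed. All 3 were matched to RefSeq entries of the rat build GRCr8, which is not the build rn4 that the study used. The seed is in capitals.
miR-199a-5p: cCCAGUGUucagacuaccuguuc
miR-199a-3p: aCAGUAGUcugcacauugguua
miR-214: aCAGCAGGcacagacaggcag
In GRCr8, miR-199a-5p lies at chr13:77116255-77116277, miR-199a-3p at chr13:77116294-77116315 and miR-214 at chr13:77121713-77121733, all on the plus strand. These positions fall within the bounds of Dnm3, which is on the minus strand. The arms of miR-199a are 16 bases apart, and 5397 bases separate miR-199a-3p from miR-214. The deposited name miR-214 was read as miR-214-3p, because in the table it is product 2 of its precursor, like miR-199a-3p. The other arm, miR-214-5p, and miR-3120, from a hairpin on the opposite strand at the miR-214 locus, are not among the 30 rows. miR-3120 and miR-214-3p share 0 positions of the genome.

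Each of the 3 seeds occurred once among the 724 mature rat miRNAs of RefSeq, and so did each mature sequence. The seeds of miR-199a-3p and miR-214 were identical at 5 of 7 positions, those of the miR-199a arms at 3 and those of miR-199a-5p and miR-214 at 2. In human and mouse the 3p arm of miR-199b has the same sequence as miR-199a-3p. How such reads were assigned by the authors could not be found in the sources used here. Whether all miR-199a reads came from the Dnm3os transcript could not be found either.

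All values below are the authors' normalized log2 levels, with each miRNA centred on its own median over the 6 basal libraries. A step of 1 thus stands for a 2-fold change of the same miRNA, and levels cannot be compared between miRNAs. None of the 3 miRNAs had tied lowest values, whereas 7 of the 30 miRNAs had 2 or more libraries at the same lowest value. Without reads per miRNA in the table, the counting error behind a value is unknown. The step from pair-fed replicate 2 to ethanol-fed replicate 3 was the same for miR-214 (0.486612 to 0.636251) and miR-201 (0.160574 to 0.310213). That step was singled out after the values were seen, and whether it reflects few reads was not tested. The part of counting error in the gaps of miR-214 to the miR-199a arms, and in its nearness to miR-201, was not tested either.

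miR-199a-5p was at 3.18 in pair-fed replicate 1, -0.10 in replicate 2 and 0.27 in replicate 3. In ethanol-fed replicates 1 to 3 it was at -1.46, 0.07 and -0.07. A single pair-fed library was high and a single ethanol-fed library low, and the other 4 libraries lay between -0.10 and 0.27. Pair-fed replicate 1 was 8.57-fold above the geometric mean of replicates 2 and 3. The groups overlapped, as pair-fed replicate 2 lay below ethanol-fed replicates 2 and 3.

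miR-199a-3p, the opposite arm of the same hairpin, was at 2.85, -0.11 and 0.22 in pair-fed replicates 1 to 3. In ethanol-fed replicates 1 to 3 it was at -2.41, -0.13 and 0.11. The same libraries stood out as for the 5p arm, with pair-fed replicate 1 6.97-fold above the geometric mean of its replicates and ethanol-fed replicate 1 5.28-fold below that of its own. From the highest to the lowest library this was a 38.5-fold span, or 5.26 on the log2 scale, the widest of the 30 miRNAs, with miR-199a-5p next at 4.65. The groups overlapped here too.

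miR-214 was at 2.63, 0.49 and -1.49 in pair-fed replicates 1 to 3, and at -0.49, -1.60 and 0.64 in ethanol-fed replicates 1 to 3. Pair-fed replicate 1 was again the highest library, 8.74-fold above the geometric mean of its replicates. In contrast to the miR-199a arms, the lowest library was ethanol-fed replicate 2, and pair-fed replicate 3 was close to it. Ethanol-fed replicate 1 was within 0.01 of the mean of the other ethanol-fed libraries, and the highest ethanol-fed library was above all pair-fed libraries except replicate 1.

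**Figure D1:**
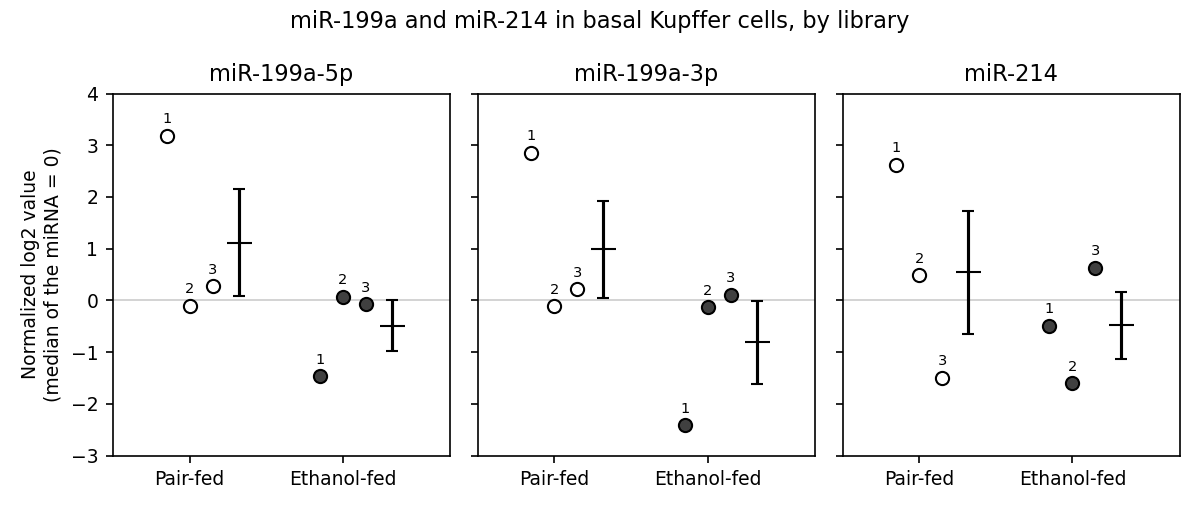
Normalized log2 values (vertical axis, median of each miRNA at 0) of miR-199a-5p, miR-199a-3p and miR-214 in the 3 pair-fed (open circles) and 3 ethanol-fed (filled circles) basal libraries, numbered by replicate; bars give the mean ± SEM of each group. Pair-fed replicate 1 is the highest library of all 3 miRNAs, and the groups overlap in each.

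Averaged by diet, miR-199a-3p had a normalized log2 level of 0.99 ± 0.94 (SEM, n = 3) in pair-fed and of -0.81 ± 0.80 in ethanol-fed rats. The difference was -1.80 ± 1.24 (SE), or 3.47-fold lower. miR-199a-5p was at 1.12 ± 1.04 and -0.49 ± 0.49, a difference of -1.60 ± 1.15, or 3.04-fold lower. miR-214 was at 0.54 ± 1.19 and -0.48 ± 0.64, a difference of -1.02 ± 1.35, or 2.03-fold lower. All 3 were at least 2-fold lower, which the selection fixes (100% of the 30 miRNAs). Each of these differences was less than 2 SE, and that of miR-214 was smaller than its SE.

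These differences are what placed the miRNAs in the table, whose threshold was 2-fold. Among the 30 miRNAs, miR-199a-3p had the 6th largest difference, miR-199a-5p the 9th and miR-214 the 29th, so that miR-214 lay just inside the threshold, next to miR-541 at -1.02. The rows just outside it were not analysed here. The standard error of miR-214 was the largest of the 30 and that of miR-199a-3p the next, against a median of 0.88. The groups were separate in 0 of the 3 miRNAs, beside 23.3% of the 30 miRNAs, and 2 of the 3 were at least 3-fold lower, beside 30% of the 30.

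The differences of miR-199a rested on the libraries of day 1. The labels do not say that a day was shared by pair-fed and ethanol-fed rats, so differences within a day set same-numbered libraries side by side. Within day 1, the ethanol-fed minus pair-fed difference was -4.65 for miR-199a-5p and -5.26, or 38.5-fold, for miR-199a-3p. On day 2 the differences were 0.17 and -0.020, and on day 3 -0.34 and -0.11. For both arms the libraries of days 2 and 3 thus differed by at most 1.27-fold between the diets. Of the 30 miRNAs, 76.7% had their largest fall on day 1, among them all 3 described here, and the median differences of the 30 were -2.70, -0.35 and -0.67 on days 1 to 3.

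The log2 difference of miR-214 was -3.11 on day 1, -2.08 on day 2 and 2.13 on day 3. The last was the largest rise on day 3 among the 30 miRNAs. All 3 days went the same way only for miR-199a-3p, beside 46.7% of the 30 miRNAs, and its smallest difference was -0.020. Taken within days, the standard errors were 1.53 for miR-199a-5p, 1.73 for miR-199a-3p and 1.60 for miR-214, larger than without the pairing.

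Without pair-fed replicate 1, the difference was -0.57 for miR-199a-5p, -0.86 for miR-199a-3p and 0.020 for miR-214. None of the 3 was then at least 2-fold lower, beside 33.3% of the 30 miRNAs, and miR-214 was the only one of the 30 (3.33%) that was not lower in ethanol-fed rats. Without ethanol-fed replicate 1, the differences were -1.12, -0.996 and -1.02. With both day 1 libraries left out, miR-199a-5p was at -0.084, miR-199a-3p at -0.063 and miR-214 at 0.022, where the median of the other 27 miRNAs was -0.64. Without ethanol-fed replicate 2, miR-214 was at -0.47, and without pair-fed replicate 3 at -2.04. Of the 3 miRNAs, 2 were at least 2-fold lower without ethanol-fed replicate 1 (66.7% of the 30) and 2 without ethanol-fed replicate 2 (80%). The count was 3 without pair-fed replicate 2 or 3 or ethanol-fed replicate 3 (90% in each case). By day, 0 were so without day 1 (20%), 2 without day 2 (86.7%) and 3 without day 3 (90%), and without day 1 miR-214 was among the 13.3% that were not lower.

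**Figure D2:**
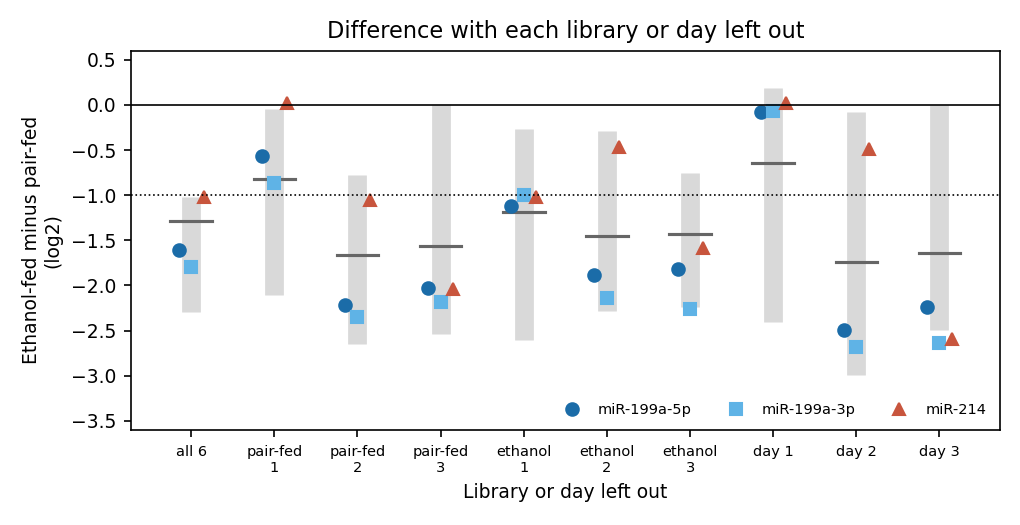
Ethanol-fed minus pair-fed difference (log2, vertical axis) of miR-199a-5p (circles), miR-199a-3p (squares) and miR-214 (triangles) with all 6 libraries and with each library or day left out (horizontal axis); grey bars span the other 27 miRNAs, short lines mark their median, and the dotted line marks 2-fold lower. Without day 1 the 3 miRNAs lie between -0.084 and 0.022.

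Compared library by library, the arms of miR-199a followed each other closely. The centred value of miR-199a-5p minus that of miR-199a-3p was 0.33, 0.01 and 0.05 in pair-fed replicates 1 to 3. In ethanol-fed replicates 1 to 3 it was 0.95, 0.20 and -0.18. The sign of such a gap does not say which miRNA was more abundant. The only gap over 0.5 was in ethanol-fed replicate 1, where both arms were lowest. Over the 6 libraries the root mean square of the gaps was 0.43, and it was 0.19 without ethanol-fed replicate 1. The mean gap was 0.13 ± 0.10 (SEM, n = 3) with pair-feeding and 0.32 ± 0.33 with ethanol, so the gap between the arms differed between the diets by less than its spread.

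miR-214 followed the arms of miR-199a less closely, and was farthest from them in pair-fed replicate 3 and ethanol-fed replicates 1 and 2. The centred value of miR-199a-5p minus that of miR-214 was 1.76 in pair-fed replicate 3, 1.67 in ethanol-fed replicate 2 and -0.98 in ethanol-fed replicate 1. In pair-fed replicates 1 and 2 and ethanol-fed replicate 3 these gaps were 0.56, -0.59 and -0.71. The largest gap of miR-199a-3p and miR-214 was -1.92, in ethanol-fed replicate 1. The root mean squares were 1.15 for miR-199a-5p and 1.25 for miR-199a-3p against miR-214, above the median of 1.02 over all pairs of the 30 miRNAs.

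**Figure D3:**
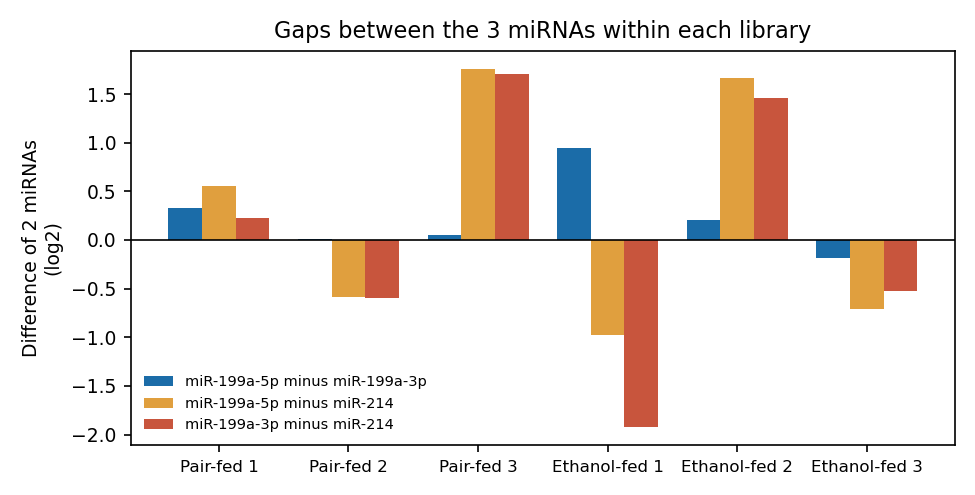
Difference between the normalized log2 values of miR-199a-5p and miR-199a-3p (blue), miR-199a-5p and miR-214 (yellow) and miR-199a-3p and miR-214 (red) within each of the 6 basal libraries (horizontal axis). The arms of miR-199a differ by at most 0.95, and the gaps to miR-214 reach 1.76 and -1.92 and change sign between libraries.

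The table held both products of 6 precursors, and the miR-199a arms had the second smallest root mean square among them, after miR-126 and miR-126* at 0.37. The others ran from 0.44 for miR-195 and miR-195* to 1.41 for miR-455 and miR-455*. It also held 8 pairs of products from neighbouring precursors, within 10000 bases on the same strand in RefSeq. miR-214 with either arm of miR-199a had the largest root mean squares of these 8. Those of miR-27b* with miR-23b, miR-497 with both products of miR-195, and miR-145 with both products of miR-143 were 0.40 to 0.51, and that of miR-3585-3p with miR-201 was 0.94.

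Because the diet contrast was used to select the rows, the pairs were also compared on deviations from the mean of each diet group. The miR-199a arms were then the closest of the 6 precursor pairs, at 0.35, and miR-214 with miR-199a-5p and miR-199a-3p remained the farthest of the 8 neighbouring pairs, at 1.08 and 1.19. These are descriptions of 6 libraries with no test, and the pairs share the libraries.

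**Figure D4:**
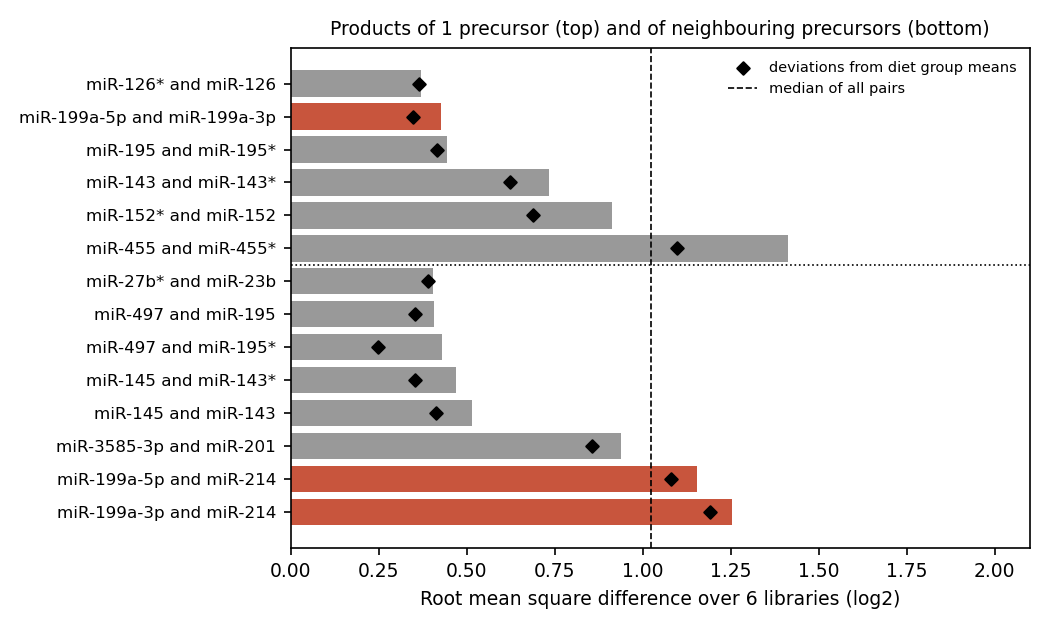
Root mean square difference over the 6 basal libraries (log2, horizontal axis) for the 6 pairs of products of 1 precursor (top) and the 8 pairs from neighbouring precursors (bottom), as deposited (bars) and as deviations from diet group means (diamonds); pairs with miR-199a are red and the dashed line is the median of all pairs. The miR-199a arms lie at 0.43 and their pairs with miR-214 at 1.15 and 1.25.

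The 5 other miRNAs nearest to the mean profile of the 3 were miR-126 (root mean square difference 0.46 over 6 libraries), miR-195 (0.52), miR-497 (0.53), miR-23b (0.55) and miR-190 (0.56). The same 5 were nearest on deviations from diet group means, between 0.40 for miR-190 and 0.52 for miR-23b. Without pair-fed replicate 3, 3 of the 5 were still among the nearest. miR-126 is made in endothelial cells from the gene Egfl7, miR-195 and miR-497 share a transcript, miR-23b is clustered with miR-27b and miR-190 lies in an intron of talin 2. miR-126 was the miRNA closest to miR-199a-5p, at 0.34, ahead of miR-199a-3p at 0.43. Of the 3, miR-214 was farthest from the others. It was 1.19 from the mean of both miR-199a arms, and nearest to miR-201, at 0.53. miR-201 was singled out after its values were seen.

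The high value in pair-fed replicate 1 was shared with most of the table. This library was the highest in 83.3% of the 30 miRNAs, in all 3 described here and in 22 of the 27 others, and ethanol-fed replicate 1 was the lowest, ties included, in 70% of the 30, in both arms of miR-199a and in 19 of the 27 others. The median of the 27 others was 1.88 in pair-fed replicate 1 and -0.79 in ethanol-fed replicate 1. In pair-fed replicate 1, miR-199a-5p was 1.30, miR-199a-3p 0.97 and miR-214 0.75 above that median. In ethanol-fed replicate 1, the 5p and 3p arms were at -0.68 and -1.62 from it, and miR-214 at 0.30.

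With the median of the 27 others subtracted in each library, the ethanol-fed minus pair-fed difference was -0.42 ± 0.58 (SE) for miR-199a-5p, -0.61 ± 0.72 for miR-199a-3p and 0.16 ± 1.11 for miR-214, which turned its direction. The 27 others were themselves selected for being lower in ethanol-fed rats, so this scale removes part of any difference by diet.

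Of 13 miRNAs listed for hepatic stellate and other mesenchymal cells, 6 had rows in the table. Beside miR-199a and miR-214 these were miR-143, miR-143* and miR-145, known from smooth muscle cells and pericytes, miR-152, miR-152* and miR-100. Of these 6 rows, 6 were highest in pair-fed replicate 1 (83.3% of the 30 miRNAs) and 3 lowest in ethanol-fed replicate 1 (70% of the 30). Their median difference was -1.35, beside -1.30 over the 30 miRNAs. Their median level was 1.85, -0.07 and 0.47 in pair-fed and -1.37, -0.25 and -0.38 in ethanol-fed replicates 1 to 3. Without pair-fed replicate 1, 2 of these 6 rows had a difference of at least 2-fold (33.3% of the 30). Of 19 miRNAs described in stellate cell activation, 5 had rows (miR-31, miR-34a*, both products of miR-195, miR-181b-1* and miR-27b*), with a median difference of -1.43. Of those 6 rows, 5 were highest in pair-fed replicate 1 and 4 lowest in ethanol-fed replicate 1 (83.3% and 70% of the 30). Without pair-fed replicate 1, 2 were at least 2-fold lower (33.3% of the 30). The list was not split by direction of change in activation, so its median has no direction to be read against.

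Of 5 endothelial miRNAs listed, 2 had rows. All 3 of these rows were highest in pair-fed replicate 1 and lowest in ethanol-fed replicate 1, beside 83.3% and 70% of the 30 miRNAs. The median of miR-126, miR-126* and miR-10a-5p was 2.59, 0.00 and 0.75 in pair-fed and -1.57, -0.14 and -0.04 in ethanol-fed replicates 1 to 3. None of 8 macrophage and other leukocyte miRNAs, 6 hepatocyte and 3 erythroid miRNAs had a row. Since the table lists selected rows only, this says nothing of their level, and the labelled cell type could not be checked against its markers. A sum over a marker list could not be formed, because each row is centred on its own median. The part of stellate or endothelial cells in the levels of miR-199a and miR-214 was not tested, and in these bulk libraries fewer cells of a type cannot be told apart from less RNA per cell.

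The basal libraries held 2865329 to 6151744 reads, of which 45.5% to 61.9% aligned. Pair-fed replicate 1 had neither the most nor the fewest reads, with the lowest share aligned of the 6 (95% Wilson interval 45.4% to 45.5%, counting error only) and 24.8% of reads too short to align, against 25.9% in pair-fed replicate 3 and 22.6% in ethanol-fed replicate 1. The part of these shares in its values was not tested. Between the diets, total reads averaged 4909353 (pair-fed) and 3742887 (ethanol-fed), with p = 0.3 in a two-sided exact permutation test (adjusted p = 0.4 over 4 comparisons of this kind). The shares aligned averaged 52.6% and 54.6% (exact p = 0.8, adjusted p = 0.8), and the shares too short 20.8% and 12.9% (exact p = 0.2, adjusted p = 0.4). No such test of 3 against 3 libraries can go below 0.1.

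Reads by chromosome gave a readout that the selection of the table did not use. Chromosome 13, which holds miR-199a and miR-214, took 3.27% ± 0.48 (SD, n = 3) of all read placements with pair-feeding and 2.87% ± 0.20 with ethanol (exact permutation test, two-sided, p = 0.3, adjusted p = 0.4). In pair-fed replicate 1, the library in which the 3 miRNAs were highest, the share was 2.72% (95% Wilson interval 2.70% to 2.74%, counting error only). It was the lowest of the pair-fed libraries, which were at 3.49% and 3.61% in replicates 2 and 3. That library had 2909963 placements from 2090411 aligned reads, so placements are not independent and the interval is too narrow. In ethanol-fed replicates 1 to 3 the share was 3.07%, 2.68% and 2.85%, lowest in replicate 2, which was also the lowest library of miR-214. Pair-fed replicate 3, where miR-214 was nearly as low at -1.49, had the highest share of the 6 basal libraries. How many of these placements came from the 3 miRNAs could not be found in the sources used here.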

How the data were processed

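Small RNA libraries (TruSeq) were sequenced by the authors, who used small RNA analysis software with the rat build rn4. The submitters' processing notes also name HTSeq and DESeq. The sources used here do not name the normalization. The authors deposited log2 values per library, centred on the median of each miRNA, and a fold change and p-value of their own comparison, which were not used. The deposited tables for HA35 were not used beyond their list of names. The 24 miRNAs of the second basal table have the same values as in the first (largest difference 0). In the alignment report the authors deposited whole numbers of reads, which were used here, and a column mixing fractions and percentages, read as a score with no single unit and not used. No pseudocount, filter or further normalization was applied.

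The members and lists were chosen with earlier results of these data known. Means, SEM, differences and root mean square differences were computed with Python 3.11.15, numpy 2.4.6 and pandas 2.3.3, two-sided exact permutation tests by full enumeration over libraries, Wilson intervals with scipy 1.17.1, and plots with matplotlib 3.10.9. The likeness ranking was tested on simulated data with planted, nearly identical rows, which does not show how stable the ranking is here. Named miRNAs were the 3 members, the 5 rows nearest to their mean profile, rows on the marker lists, and rows paired by precursor or neighbourhood. Replicate numbers are days in the labels, which do not say that a day was shared by both diets. The main differences, their SE and the permutation tests of 3 against 3 libraries were unpaired. Same-numbered libraries were paired only for differences within days and with the day as a block. Deviations of same-numbered libraries from group means correlated over the 30 miRNAs, which are not independent, at -0.28, -0.39 and -0.35 for days 1 to 3. Nothing says whether libraries came from separate animals, so p-values cover only the spread among libraries, which may be technical. The alternatives were leaving out each library or day, the day as a block, group medians, linear means, other centrings and a 3-fold threshold. Of the 30 miRNAs, 28 matched a RefSeq miRNA gene by name.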

Additional observations from a re-analysis of the deposited data

How the results depend on the processing

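Leaving out both libraries of a day, and subtracting the median of the other miRNAs, were chosen after seeing the data. With single libraries left out, the ethanol-fed minus pair-fed difference ranged from -2.21 to -0.57 for miR-199a-5p, from -2.35 to -0.86 for miR-199a-3p and from -2.04 to 0.020 for miR-214, each nearest 0 without pair-fed replicate 1. Without day 1 they were -0.084, -0.063 and 0.022. With the median of the 27 other miRNAs subtracted, the difference was -0.42 for miR-199a-5p, -0.61 for miR-199a-3p and 0.16 for miR-214. For miR-199a-5p, miR-199a-3p and miR-214, group medians gave -0.34, -0.35 and -0.97, and the log2 ratio of mean linear levels -2.25, -2.09 and -1.61. With the day as a replicate block the differences were the same by construction (-1.60, -1.80 and -1.02) with SE of 1.53, 1.73 and 1.60, and total reads differed by -1166466 (exact permutation test within days, p = 0.5). Leaving out a library, 0 to 3 of the 3 miRNAs remained at least 2-fold lower (33.3% to 90% of the 30). The number whose groups did not overlap was 0 to 2 (2 without pair-fed replicate 2, 1 without ethanol-fed replicate 3). Separate groups were counted over the 30 miRNAs only with all 6 libraries (23.3%). The counts with a library left out thus have no share of the 30 to stand beside. Of the 5 nearest miRNAs, 3 to 5 remained. The root mean square gap ranged from 0.19 to 0.47 between the miR-199a arms, from 0.99 to 1.24 for miR-199a-5p with miR-214 and from 1.07 to 1.37 for miR-199a-3p with miR-214, and the order of the arm pair below both others was kept. The difference in the share of reads aligned ranged from -1.50 to 6.69 percentage points, and was -1.50 without pair-fed replicate 1. With 3 libraries in a group and no reads per miRNA, single libraries set these values.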
